A study of Mus musculus with 24 samples.

Results

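The histone genes were the 83 rows of the deposited gene tables whose symbol begins with Hist1h to Hist4h, H2af, H3f3 or H1f, out of 24340 rows shared by the 6 tables. Of these, 67 were clustered histone genes, named for the Hist1, Hist2, Hist3 and Hist4 loci, and 16 were replacement histone genes, named outside these loci. A gene was reported when it reached 0.1 FPKM (fragments scaled by exon length and by the mapped fragments of the library) in any group. This left 55 genes, 44 clustered and 11 replacement, while 17265 of all 24340 rows reached the same minimum. Nearest to this minimum, Hist1h3f was left out at 0.0959 FPKM and Hist1h2bf was kept at 0.117 FPKM.

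Striatal RNA came from 24 male mice in 4 groups. R6/1 mice carry a hemizygous transgene with the first exon of human HTT, the gene of Huntington's disease, and a long CAG repeat on a C57BL/6J background, and their wild type (WT) littermates served as controls. The groups were WT-vehicle (5 mice), R6/1-vehicle (6 mice), WT-RGFP109 (6 mice) and R6/1-RGFP109 (7 mice). RGFP109, an inhibitor of the histone deacetylases HDAC1 and HDAC3, was injected intraperitoneally at 30 mg/kg, 5 times a week over 3 weeks, and vehicle mice received its solvent, dimethyl sulfoxide in saline. All mice began the injections at 11 to 14 weeks of age and were sacrificed 18 h after the last injection at 14 to 17 weeks. The tables hold 1 FPKM value per group, estimated by the authors over the libraries of that group, so no value below has a replicate error and no difference was tested. The libraries were sequenced in a pair of pools that each held all 4 groups, and the pooled values do not allow the groups to be compared within a pool. In tissue RNA, fewer cells of a type and less RNA per cell cannot be told apart.

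Histones package DNA into nucleosomes, which hold a pair each of H2A, H2B, H3 and H4, while linker histone H1 sits on the DNA between them. Most clustered genes are transcribed during DNA replication, and their mRNAs end in a conserved stem-loop bound by the protein SLBP in place of a poly(A) tail. Replacement genes encode variants such as H3.3, H2A.Z and macroH2A, are transcribed independently of replication, are usually spliced and polyadenylated, and supply histones to cells that no longer divide, such as neurons. Some clustered genes are also known to give polyadenylated mRNA in differentiated cells. Inhibitors of histone deacetylases raise the acetylation of histone proteins, which is not measured by these data.

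The stem-loops below were found in GENCODE transcripts of the same genes on GRCm38 (the assembly also called mm10) and show how this element differs between them. The 16 capitals are the match to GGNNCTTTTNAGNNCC, searched on the transcribed strand, and 5 bases stand on each side.
Hist2h4 (chr3:96262934-96262959, minus strand): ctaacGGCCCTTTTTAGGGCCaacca
Hist1h4i (chr13:22040961-22040986, minus strand): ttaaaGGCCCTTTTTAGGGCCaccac
Hist1h4h (chr13:23531453-23531478, plus strand): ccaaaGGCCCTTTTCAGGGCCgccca
Hist1h2be (chr13:23585526-23585551, minus strand): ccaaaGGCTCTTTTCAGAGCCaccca
Hist1h1c (chr13:23739507-23739532, plus strand): caaaaGGCTCTTTTCAGAGCCaccac
Hist3h2a (chr11:58955167-58955192, plus strand): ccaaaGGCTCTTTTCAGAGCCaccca
H2afx (chr9:44335235-44335260, plus strand): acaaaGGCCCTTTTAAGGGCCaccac

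Each member was scored on 1 transcript, and these letters were present for 43 of the 67 clustered genes and for 1 replacement gene, H2afx. Of 21901 protein-coding genes, 72 (0.329%) carried them in any coding transcript, a wider measure than that used for the members. Members are counted by row, and the rows Hist1h2ao,Hist1h2ap and Hist1h2ap hold the same stem-loop, counted for each. The form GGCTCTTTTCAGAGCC was carried by 25 genes of the H1, H2A, H2B and H3 types, and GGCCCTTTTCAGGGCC by 7 genes, all of them H4. Hist1h4i and Hist2h4 shared a form, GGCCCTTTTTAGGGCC, that was found in no other member. Several annotated transcripts of clustered genes stop at the coding sequence, so absence of the letters describes the annotated model.

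Levels are set beside features of 1 GENCODE transcript per gene, with the stem-loop letters counted anywhere in it. The FPKM values belong to loci that can end well before that transcript. For Hist1h1c, Hist3h2a and Hist2h4, 724 of 1560, 508 of 2146 and 378 of 1630 transcript bases lie in the locus. For Hist1h4i, Hist3h2ba and Hist1h4h, 403 of 727, 453 of 614 and 429 of 470 bases lie in it. The polyadenylation signal of all these genes lies outside the locus, so these levels were not measured on the ends named here. Among the clustered genes, 12 had both the stem-loop letters and a polyadenylation signal (AATAAA or ATTAAA) within the last 40 bases of the transcript. Of protein-coding genes, 76% carried such a signal in any of their coding transcripts, a wider measure. The median highest group value of the 12 clustered genes with both features was 2.16 FPKM. Of the 12, 7 reached 1 FPKM in some group, namely Hist1h1c, Hist1h2be, Hist1h4h, Hist1h4i, Hist2h4, Hist3h2a and Hist3h2ba. Only Hist1h2be of these 7 has its whole transcript in the locus. The 31 clustered genes with the stem-loop letters and no such signal had a median of 0.179 FPKM, and 1 of them, Hist1h1e, reached 1 FPKM. The 4 with a signal and no stem-loop letters had a median of 0.135 FPKM, with Hist2h2be alone above 1 FPKM, at 5.12. Of these 4, Hist1h2bq has no base of its scored transcript in the locus its FPKM was given for. They are too few to read the signal alone against level. The 20 with neither feature had a median of 0.153 FPKM, and 4 of them reached 1 FPKM, Hist1h2bc (39.3 FPKM), Hist1h4k, Hist2h2bb and Hist3h2bb-ps. H2afx, whose product marks broken DNA when phosphorylated, has both features and reached 30.3 FPKM. How RNA was selected for the libraries is not given in the sources used here beyond the name of the kit, and its part in these levels was not tested.

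**Figure D1:**
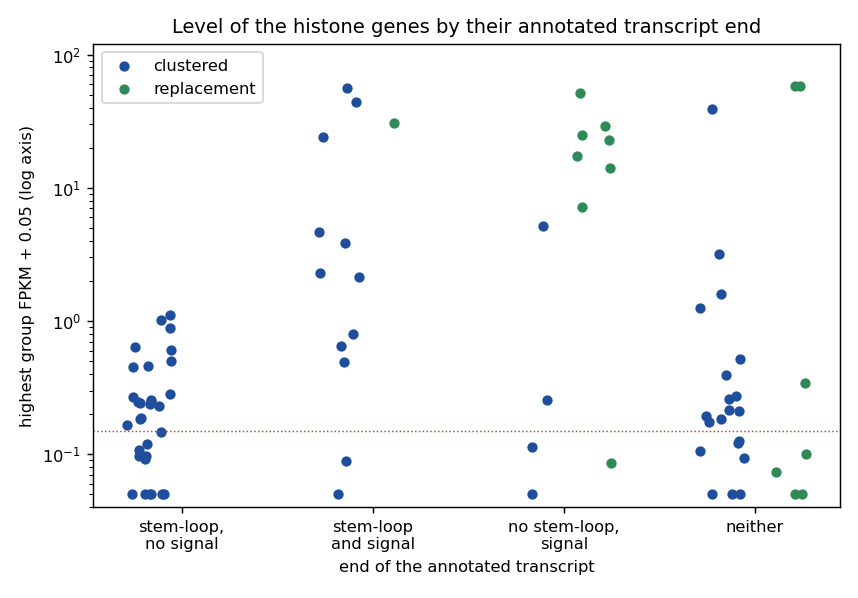
Highest group FPKM plus 0.05 (log axis) of all 83 histone genes by features of 1 annotated transcript: stem-loop letters anywhere in it, a polyadenylation signal in its last 40 bases, both or neither. Each point is 1 gene, the dotted line is the minimum for reporting, and the 31 clustered genes with a stem-loop and no signal reach at most 1.07 FPKM while 3 of the 12 with both exceed 10 FPKM.

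Replacement genes carried most of the histone signal in the striatum. On the FPKM scale, which accounts for length, 9 of the 11 reported replacement genes reached 10 FPKM, and the summed level of the class was 292 FPKM in WT-vehicle, 291 in R6/1-vehicle, and with RGFP109, 271 in WT and 292 in R6/1 mice. The clustered class summed to 175, 197, 159 and 170 FPKM in the same order. Of that, 157, 163, 140 and 143 FPKM came from 4 genes above 10 FPKM, Hist3h2a, Hist3h2ba, Hist1h2bc and Hist1h1c. Another 9 clustered genes lay between 1 and 10 FPKM and 31 between 0.1 and 1, while 12 were lower and 11 were listed at 0 in every group. In the vehicle genotype table, 31 of the 44 reported clustered genes and 1 of the 11 replacement genes had too few reads for the authors' own test, so single low values are weakly measured.

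The highest replacement genes encode the variants typical of resting cells. H2afy, the gene of macroH2A1, had 47.7 FPKM in WT-vehicle, 58.3 in R6/1-vehicle, and with RGFP109, 46.3 in WT and 58.3 in R6/1 mice. H3f3b, 1 of the pair of genes for H3.3, had 53.2, 58.0, 49.6 and 57.9 FPKM in these groups, and H3f3a, the other, had 16.4, 17.2, 14.6 and 16.5. For both H2afy and H3f3b, the R6/1 groups stood above the WT groups with either treatment, by a log2 ratio of 0.29 and 0.12 with vehicle and of 0.33 and 0.22 with RGFP109.

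H1f0 and H1fx encode linker histones of cells that have left the cell cycle or are not tied to it. H1f0 had 47.8 FPKM in R6/1-vehicle, and with RGFP109, 47.7 in WT and 47.2 in R6/1 mice, and its highest value was in WT-vehicle (log2 ratio of R6/1-vehicle to it -0.09). H1fx ranged from 25.5 to 28.8 FPKM over the 4 groups. H2afx was highest in WT-vehicle at 30.3 FPKM, and the other groups lay between 24.1 and 25.9. H2afj, an H2A gene of differentiated and ageing cells, was likewise highest in WT-vehicle, at 22.9 FPKM against 18.0 to 19.7 elsewhere.

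The H2A.Z genes were split in direction. H2afv had 24.3 FPKM in WT-vehicle and 24.8 in WT-RGFP109, against 21.2 and 21.1 in the corresponding R6/1 groups. H2afz had 5.74, 6.04, 5.24 and 7.07 FPKM in WT-vehicle, R6/1-vehicle, WT-RGFP109 and R6/1-RGFP109, and 69.3% of its 51-base windows, the length of a read, also occur elsewhere in the annotated transcripts. H2afy2, the gene of macroH2A2, had 11.6 FPKM in both WT groups, 13.2 in R6/1-vehicle and 14.0 in R6/1-RGFP109, and its locus overlaps Aifm2.

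**Figure D2:**
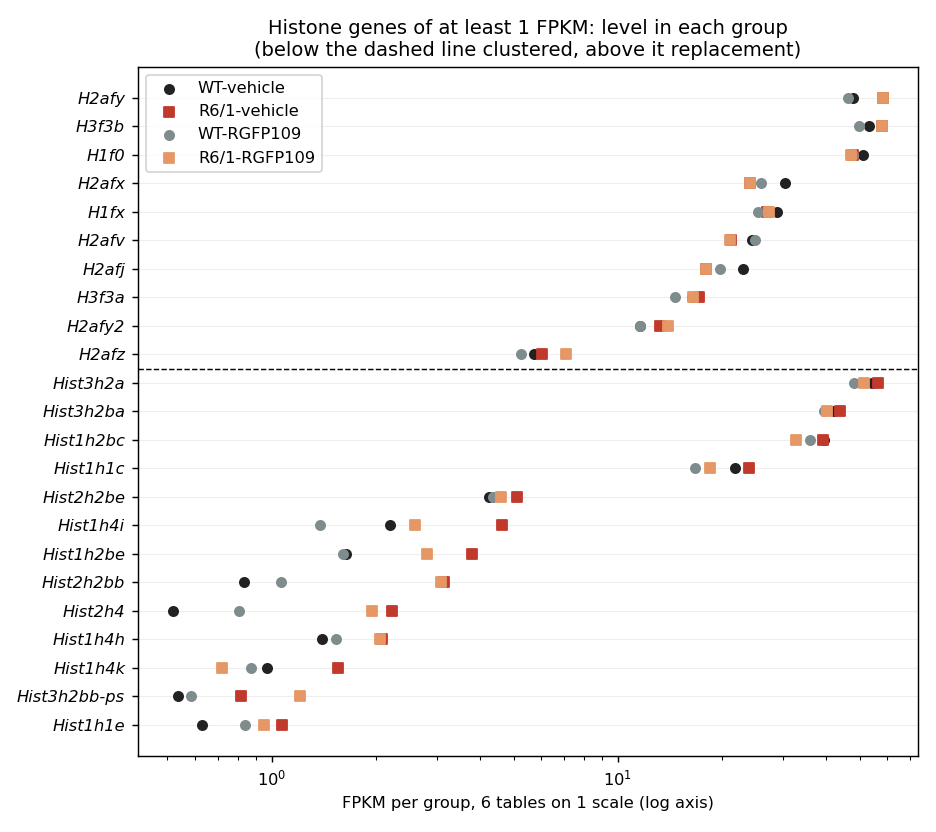
FPKM (log axis) of the 23 histone genes that reached 1 FPKM in any group, with circles for WT and squares for R6/1 groups and clustered genes below the dashed line. The 4 groups lie close together for genes above 10 FPKM, and the R6/1 squares of Hist2h2bb and Hist2h4 lie well to the right of the WT circles.

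The first comparison asks how histone gene expression differs between R6/1 and WT mice without the inhibitor. Clustered genes below 10 FPKM were mostly higher in R6/1-vehicle, whereas the 4 clustered genes above 10 FPKM and 10 of the 11 replacement genes stayed within the fold. A gene was counted as higher or lower past the fold when the log2 ratio of FPKM, each with 0.05 added, passed 0.5 (1.41-fold). Among the 55 reported genes 26 were higher and 4 lower in R6/1-vehicle, or 47.3% and 7.27%, while 5.87% of all genes at this minimum were higher and 13.3% were lower. The clustered genes supplied 25 of the 26 and all 4 of the lower ones, with a median log2 ratio of 0.61 over 44 genes, against 0.07 over the 11 replacement genes and -0.02 over all 17265 genes. The summed level of clustered genes below 10 FPKM was 17.7 FPKM in WT-vehicle and 33.8 FPKM in R6/1-vehicle.

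Level matters for how such counts are read. Ranges go by the highest group value, for all genes alike, so a gene can enter a range only through the group where it is high. Between 1 and 10 FPKM, 8 of 9 clustered genes were higher past the fold and none lower, where 6.2% of all genes in this range were higher and 12.3% lower. Hist2h4, Hist1h1e, Hist1h4k and Hist3h2bb-ps reached 1 FPKM only in R6/1 groups, so this count is in part set by how the range is drawn. Between 0.1 and 1 FPKM, 17 of 31 were higher and 4 lower, where 13% of all genes were higher and 24.6% lower. Among the higher, Hist1h2ab, Hist1h2ad, Hist1h2ak, Hist1h2bf, Hist1h2bh, Hist1h2bm, Hist1h3i and Hist2h2aa2 reached 0.1 FPKM only in R6/1 groups. Among the lower, Hist1h2bn, Hist1h4f and the joint row Hist1h4m,Hist1h4n reached it only in WT groups. Low genes with a locus as short as most histone genes, under 1000 bases, passed the fold more often in either direction, with 12 higher (18.2%) and 24 lower (36.4%) among 66 that are not histone genes. Of 54 reported histone genes with windows to compare, 23 shared over 50% of their 51-base windows with other places in the annotated transcripts. Leaving these out kept 11 higher and 2 lower of 32, and the 11 include Hist2h2aa2, which has no windows to compare. The joint row Hist2h2aa1,Hist2h2aa2 at the same locus shared 96% of its windows.

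Hist2h4, an H4 gene, had the largest ratio among the clustered genes that reached 1 FPKM. It had 0.520 FPKM in WT-vehicle and 2.23 in R6/1-vehicle, and with RGFP109 it had 0.803 in WT and 1.95 in R6/1 mice, so both R6/1 groups stood above both WT groups. The log2 ratio was 2.00 with vehicle and 1.23 with RGFP109, and 4.57% of its windows occur elsewhere in the annotated transcripts.

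Hist2h2bb, an H2B gene of the same locus, came next. Its values were 0.830 FPKM in WT-vehicle, 3.14 in R6/1-vehicle, and with RGFP109, 1.07 in WT and 3.08 in R6/1 mice. The R6/1 values were again above both WT values, with a log2 ratio of 1.86 with vehicle and 1.49 with RGFP109, and none of its windows occurs elsewhere.

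Hist1h2be, an H2B gene whose annotated locus has a distant upstream exon, had 1.63, 3.78, 1.61 and 2.81 FPKM in WT-vehicle, R6/1-vehicle, WT-RGFP109 and R6/1-RGFP109. Its log2 ratio was 1.18 with vehicle and 0.79 with RGFP109. Of its windows 11.3% occur elsewhere.

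Hist1h4i, the H4 gene that shares its stem-loop form with Hist2h4, had 2.19, 4.62, 1.38 and 2.59 FPKM in the same order. R6/1 exceeded WT within each treatment, by a log2 ratio of 1.06 and 0.89, and the treated R6/1 value lay between those of WT-vehicle and R6/1-vehicle. For Hist1h4i 55% of the windows are shared with other H4 genes, so reads may be divided between copies, and how the authors' software placed such reads is not given in the sources used here.

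The other clustered genes between 1 and 10 FPKM showed smaller ratios with vehicle. Hist1h1e, a linker histone gene, had 0.628 FPKM in WT-vehicle and 1.07 in R6/1-vehicle (log2 ratio 0.72), and Hist1h4k had 0.971 and 1.55 (0.65). For Hist1h4k 71% of the windows occur elsewhere in the annotated transcripts, so its reads may be divided between copies. Hist1h4h, another H4 gene, had 1.40 and 2.09 FPKM (0.56), and Hist3h2bb-ps, annotated as an H2B pseudogene, had 0.537 and 0.813 (0.56). Hist2h2be, an H2B gene with a polyadenylation signal and without the stem-loop letters in its model, stayed within the fold at 4.26 and 5.12 FPKM.

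Among the most abundant clustered genes the genotypes were close. Hist3h2a had 54.1 FPKM in WT-vehicle and 56.3 in R6/1-vehicle, and its neighbour Hist3h2ba had 42.1 and 43.9. Hist1h2bc had 39.3 and 39.2 FPKM. Hist1h1c, the main clustered linker histone gene here, had 21.7 and 23.9.

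Below 1 FPKM the higher genes came from every core histone. Of the H2A genes, Hist1h2ae had 0.193 FPKM in WT-vehicle and 0.750 in R6/1-vehicle, Hist1h2ac 0.499 and 0.838, Hist2h2ac 0.199 and 0.448, and Hist2h2aa2 0.0872 and 0.405. The joint row Hist2h2aa1,Hist2h2aa2 has the same locus as Hist2h2aa2 and went the other way, with 0.0512 FPKM in WT-vehicle and 4.7e-06 in R6/1-vehicle. It lay below the minimum, and how reads were divided between these rows is not given. Hist1h2ab and Hist1h2ad were higher at under 0.22 FPKM, and Hist1h2ak was listed at 0 in WT-vehicle. Of the H2B genes, Hist1h2bg had 0.193 and 0.963 FPKM, while Hist1h2bf, Hist1h2bh, Hist1h2bm and Hist1h2bp were listed at 0 in WT-vehicle and had 0.117 to 0.207 FPKM in R6/1-vehicle.

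H3 and H4 genes at this level followed the same direction with exceptions. Hist1h3d had 0.179 FPKM in WT-vehicle and 0.588 in R6/1-vehicle, Hist2h3b had 0.194 and 0.307, and Hist1h3i was listed at 0 in WT-vehicle and had 0.145 in R6/1-vehicle. All 5 reported H3 genes had a log2 ratio above 0, and the summed clustered H3 level was 0.646 and 1.64 FPKM. Hist1h4j had 0.158 and 0.595 FPKM and Hist1h4d 0.127 and 0.313. Lower in R6/1-vehicle were Hist1h4f at 0.232 and 0.0812 FPKM, the joint row Hist1h4m,Hist1h4n at 0.179 and 0.0647, Hist1h2bb at 0.199 and 0.0916, and Hist1h2bn at 0.173 and listed at 0.

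The replacement gene past the fold was H2afb3, an H2A variant gene of the X chromosome. It was listed at 0 in both WT groups and had 0.260 FPKM in R6/1-vehicle and 0.295 in R6/1-RGFP109. Its row spans a locus that overlaps Pcdh11x, and 45.6% of its windows occur elsewhere, so this value is uncertain. The clustered genes Hist1h2bf, Hist1h2bh and Hist1h3i were likewise listed at 0 in both WT groups and above 0 in both R6/1 groups.

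**Figure D3:**
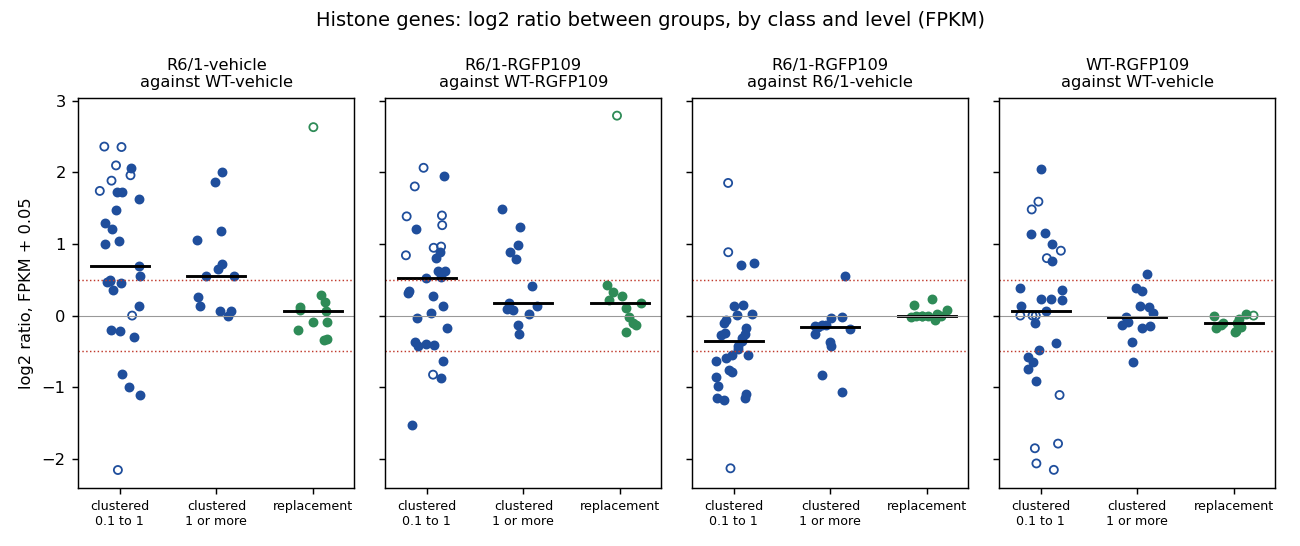
Log2 ratio of FPKM plus 0.05 for the 55 reported histone genes in 4 comparisons, split into clustered genes of 0.1 to 1 FPKM, clustered genes of 1 FPKM or more, and replacement genes. Each point is 1 gene (open where a group is listed at 0), black bars are medians and dotted lines mark 0.5 and -0.5, and the clustered medians stand above 0.5 in the first panel while the replacement median is 0.07.

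By position, genes past the fold were found at several loci. At Hist2, on chromosome 3 from 96219916 to 96270192 on mm10, 5 of 7 reported genes were higher past the fold with vehicle and none lower. With RGFP109 5 were again higher and none lower, but the genes differed, since Hist2h2ac dropped out and Hist2h2ab, chosen after its values were seen, came in at a log2 ratio of 0.63 (0.49 with vehicle). In the main part of Hist1, on chromosome 13 from 23531044 to 23764412, 12 of 21 were higher and 2 lower with vehicle, and 11 higher and 1 lower with RGFP109. The Hist1 block from 21715713 to 21837530 had 6 of 10 higher and 2 lower with vehicle, but 3 higher and 3 lower with RGFP109. At Hist3, on chromosome 11 from 58948911 to 58955192, Hist3h2bb-ps was past the fold and its neighbours were not. Over all genes, 5.87% were higher and 13.3% lower with vehicle, and 5.53% and 11.7% with RGFP109. Only 3 of the 7 genes at Hist2, 5 of the 21 in the main part of Hist1 and 1 of the 10 in the other Hist1 block reached 1 FPKM, and short genes below that level passed the fold more often, as given above.

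The second comparison repeats the genotype difference in mice that received RGFP109, which share no animal with the vehicle groups. Here 22 of the 55 genes were higher and 4 lower in R6/1 mice, where 5.53% of all genes were higher and 11.7% lower. The clustered genes gave 21 higher and 4 lower, with a median log2 ratio of 0.38, and replacement genes 1 higher (H2afb3) and none lower, with a median of 0.18. In 8 of the 21, a group of the pair is listed at 0, and over the 35 clustered genes without a 0 the median log2 ratio was 0.19 without a pseudocount, where the vehicle pair had 6 of 25 and a median of 0.62 over 36 genes. Between 0.1 and 1 FPKM, 16 of 31 clustered genes were higher and 4 lower, against 14 (21.2%) and 21 (31.8%) of the 66 short genes of this range that are not histone genes. Of the 16, Hist1h2ab, Hist1h2ad, Hist1h2bf, Hist1h2bh, Hist1h2bl, Hist1h3i and Hist2h2aa2 reached 0.1 FPKM only in R6/1 groups. Of the 4 lower, Hist1h2bn and Hist1h4f reached it only in WT groups. Of the 26 genes higher with vehicle, 15 were higher past the fold again, while 40% of the 1013 genes of all kinds that were higher with vehicle did so. The 15 include H2afb3 and, except Hist1h2bl, the genes just named for R6/1, which all passed the minimum only through R6/1 groups. Of the clustered genes of at least 1 FPKM, 5 of 13 were higher with RGFP109 and none lower, where 3.85% of all genes at that minimum were higher and 9.39% lower. These were Hist1h2be, Hist1h4i, Hist2h2bb, Hist2h4 and Hist3h2bb-ps, all higher with vehicle too. Of these, Hist2h4 and Hist3h2bb-ps reached 1 FPKM only in R6/1 groups.

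Others did not repeat. Hist1h4k, with 71% of its windows shared, was higher in R6/1 with vehicle but had 0.871 FPKM in WT-RGFP109 and 0.719 in R6/1-RGFP109. Hist2h2ac had 0.450 and 0.339 FPKM in these groups, a log2 ratio of -0.36 after 1.00 with vehicle. Hist1h2ak and Hist1h4j turned past the fold in the opposite direction, at 0.0385 FPKM and listed at 0 for the first and 0.416 and 0.252 FPKM for the second. Hist1h2bg, with 0.193 FPKM in WT-vehicle, had 0.963, 0.963 and 0.703 FPKM in R6/1-vehicle, WT-RGFP109 and R6/1-RGFP109, so that the vehicle difference rests on a low WT-vehicle value.

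Read over all 4 groups, both R6/1 values exceeded both WT values for 8 of the 13 clustered genes of at least 1 FPKM, or 61.5%, where 37.8% of all genes at that minimum did so. Of these 8, Hist1h1e, Hist2h4 and Hist3h2bb-ps reached 1 FPKM only in R6/1 groups. Between 0.1 and 1 FPKM this held for 12 of 31 clustered genes, or 38.7%, against 20.1% of all genes, and the share among short genes was not computed. Of these 12, Hist1h2ab, Hist1h2ad, Hist1h2bf, Hist1h2bh, Hist1h3i and Hist2h2aa2 reached 0.1 FPKM only in R6/1 groups. Among the replacement genes both R6/1 values exceeded both WT values for 6 of 11, H2afb3, H2afy, H2afy2, H2afz, H3f3a and H3f3b. H2afb3 reached 0.1 FPKM only in R6/1 groups. Both R6/1 values lay below both WT values for 3 replacement genes, H2afj, H2afv and H2afx. The share among all genes of at least 0.1 FPKM was 34.5% above and 36.6% below.

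**Figure D4:**
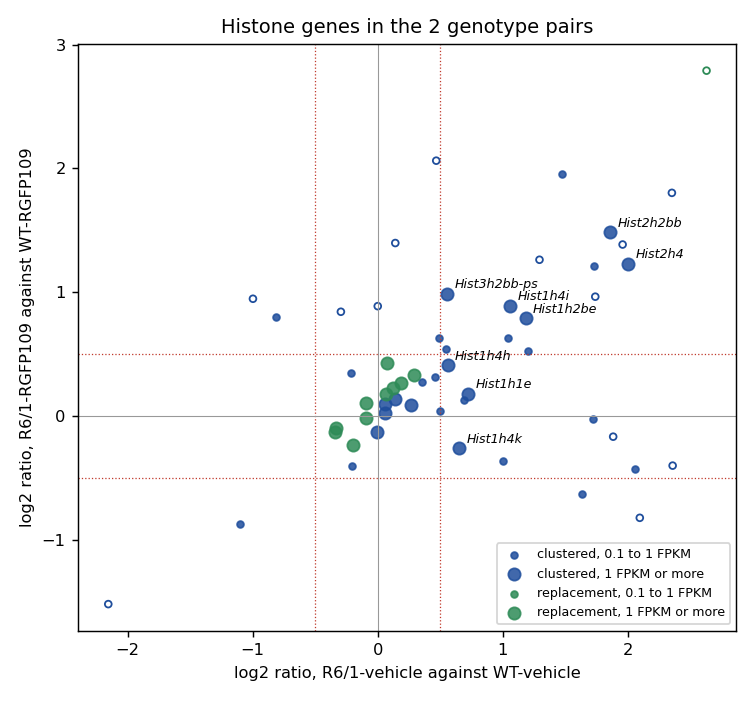
Log2 ratio of R6/1 against WT with vehicle (horizontal) and with RGFP109 (vertical) for the 55 reported histone genes, with large points for genes of at least 1 FPKM and open points for genes listed at 0 in a group. Hist2h2bb, Hist2h4, Hist1h4i, Hist1h2be and Hist3h2bb-ps are past the dotted lines at 0.5 on both axes, and the replacement genes other than H2afb3 lie within them.

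The third comparison concerns RGFP109 in R6/1 mice. It shares the R6/1-vehicle value with the first, so a gene with a high value in that group tends to appear as higher there and lower here. In R6/1-RGFP109, 5 of 55 genes were higher than in R6/1-vehicle and 15 lower, all of them clustered, where 2.77% of all genes were higher and 3.31% lower. Of the 20, 17 were below 1 FPKM, a range in which 17.9% of all genes passed the fold in either direction. These were 4 higher and 13 lower of 31 clustered genes in the range, where 13 (19.7%) were higher and 13 (19.7%) lower of the 66 short genes that are not histone genes. Among the lower, Hist1h2ab, Hist1h2ak, Hist1h2bf, Hist1h2bm and Hist1h3i reached the minimum of 0.1 FPKM only in R6/1-vehicle. Among the higher, Hist1h2bl reached it only in R6/1-RGFP109. For these the minimum itself selects the direction. All 11 replacement genes stayed within a log2 ratio of -0.06 to 0.23.

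At 1 FPKM or more, Hist1h4i and Hist1h4k were lower in treated R6/1 mice, by a log2 ratio of -0.82 and -1.06, and Hist3h2bb-ps was higher at 0.55, where 1.75% of all genes at that minimum were lower and 1.69% higher. Hist1h4k reached 1 FPKM only in R6/1-vehicle and Hist3h2bb-ps only in R6/1-RGFP109, so for both the minimum selects the direction. For Hist1h4k 71% of the windows occur elsewhere. Hist2h2bb and Hist2h4 differed little between the R6/1 groups, with ratios of -0.03 and -0.19, and Hist1h2be had -0.42. Below 1 FPKM, Hist1h2ac, Hist1h2ae, Hist1h4j, Hist4h4, Hist1h1d, Hist1h2ab, Hist1h2af, Hist1h2bf, Hist1h2bh, Hist1h2bm, Hist1h2bp, Hist1h3i and Hist1h2ak were lower. Of these Hist1h2ac went from 0.838 to 0.352 FPKM, Hist1h2ae from 0.750 to 0.357, Hist4h4 from 0.442 to 0.269, and Hist1h2ak from 0.164 to a listed 0. Hist1h4d, with 0.313 and 0.554 FPKM, and Hist1h2bb, with 0.0916 and 0.180, were higher, as were Hist1h2bl and Hist1h2bn, both listed at 0 in R6/1-vehicle.

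The summed level of clustered genes below 10 FPKM was 26.9 FPKM in R6/1-RGFP109, between the 18.5 of WT-RGFP109 and the 33.8 of R6/1-vehicle. Its H2B genes summed to 14.7 FPKM in R6/1-vehicle and 13.2 in R6/1-RGFP109, its H4 genes to 12.3 and 8.85, its H2A genes to 3.68 and 2.15, its H3 genes to 1.64 and 1.44, and its H1 genes to 1.46 and 1.21.

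The fourth comparison concerns RGFP109 in WT mice. There 10 of 55 genes were higher and 10 lower after RGFP109, all clustered, where 3.3% of all genes were higher and 4.94% lower, and 18 of the 20 lay below 1 FPKM, a range in which 25.5% of all genes passed the fold. These 18 are of 31 clustered genes in the range, and of the 66 short genes in it that are not histone genes 34 (51.5%) passed, so this count lies near that background. The median log2 ratio of the clustered genes was 0.02 and that of the replacement genes -0.10. At 1 FPKM or more Hist2h4 was higher (0.58) and Hist1h4i was lower (-0.65), where 1.89% of all genes were higher and 2.48% lower. Hist2h4 reached 1 FPKM only in R6/1 groups, and had 0.520 FPKM in WT-vehicle and 0.803 in WT-RGFP109.

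Hist1h4i was therefore lower after RGFP109 in both genotypes, as were Hist1h1d, Hist1h2ab, Hist1h2ac and Hist1h2af. These 5 genes are 9.09% of the 55, a pattern found in 1.14% of all genes, and 4 of them lay below 1 FPKM, where the share was 3.1%. The share of this pattern among short genes was not computed. Of these 4, Hist1h1d, Hist1h2ab and Hist1h2af are listed at 0 in WT-RGFP109. In the other direction, Hist1h4d and Hist1h2bl were higher in both genotypes, as were 0.481% of all genes, and Hist1h2bl is listed at 0 in both vehicle groups. Within the fold, Hist1h1c went from 21.7 to 16.8 FPKM in WT and from 23.9 to 18.4 FPKM in R6/1 mice after RGFP109, a log2 ratio of -0.37 in each. The other 3 clustered genes above 10 FPKM also had ratios below 0 in both genotypes, from -0.26 to -0.09.

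The upstream sequence of genes that differed is shown for Hist2h2bb, Hist1h2be and Hist1h4i, beside Hist1h1c, which was abundant and close between genotypes. Each line gives the 250 bases before a RefSeq transcript start on GRCm38.p6, and for Hist1h2be it is the start nearer the coding sequence. Capitals mark matches on either strand to ATTTGCAT (the octamer known from H2B promoters), CCAAT (the CCAAT box), TATAAA (the TATA box) and AAACACA (the H1 box), so a match on the other strand is printed as its reverse complement, and matches of different motifs did not overlap in any member's promoter.
Hist2h2bb (chr3:96269450-96269699, plus strand): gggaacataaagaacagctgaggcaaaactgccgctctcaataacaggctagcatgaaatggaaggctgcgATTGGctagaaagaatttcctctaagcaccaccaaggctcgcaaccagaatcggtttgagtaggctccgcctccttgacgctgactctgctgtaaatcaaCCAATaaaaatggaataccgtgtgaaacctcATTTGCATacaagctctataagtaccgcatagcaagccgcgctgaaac
Hist1h2be (chr13:23585971-23586220, minus strand): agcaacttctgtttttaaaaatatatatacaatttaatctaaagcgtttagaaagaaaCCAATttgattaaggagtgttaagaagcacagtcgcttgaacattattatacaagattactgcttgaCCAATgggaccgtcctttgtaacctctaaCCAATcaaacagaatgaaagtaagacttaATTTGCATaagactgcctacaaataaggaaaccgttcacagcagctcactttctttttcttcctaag
Hist1h4i (chr13:22041363-22041612, minus strand): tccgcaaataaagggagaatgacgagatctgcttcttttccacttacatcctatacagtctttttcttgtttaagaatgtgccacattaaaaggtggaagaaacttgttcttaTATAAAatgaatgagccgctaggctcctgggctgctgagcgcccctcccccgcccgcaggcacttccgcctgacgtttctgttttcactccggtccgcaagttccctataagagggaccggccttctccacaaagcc
Hist1h1c (chr13:23738557-23738806, plus strand): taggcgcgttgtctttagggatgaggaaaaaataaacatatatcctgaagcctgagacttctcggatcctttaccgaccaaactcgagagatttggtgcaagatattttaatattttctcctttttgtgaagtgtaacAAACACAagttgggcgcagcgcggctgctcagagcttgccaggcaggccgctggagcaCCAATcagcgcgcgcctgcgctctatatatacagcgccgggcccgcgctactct

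Promoters were found for 71 of the 83 members, and counts use the first listed start where a gene has more than 1, which for Hist1h2be is the distant one. The octamer was present in 6 of 14 clustered H2B promoters and in 7 of 17 clustered H2A promoters, and in none of the H1, H3 or H4 ones. The H2A rows Hist1h2ao,Hist1h2ap and Hist1h2ap have the same promoter, without the octamer, and it was counted for each. H2A and H2B genes are known to lie in facing pairs that share a stretch of upstream DNA. The octamer was found in 1.6% of all 32851 promoters. CCAAT was present in 84.2% of clustered promoters against 33.8% of all, TATAAA in 49.1% against 12.4%, and AAACACA in 5 of 6 clustered H1 promoters against 6.25% of all. Replacement promoters held CCAAT in 8 of 14 and TATAAA in 1 of 14. Hist2h2bb and Hist1h2be have the octamer and CCAAT, Hist1h4i has TATAAA and neither of these, and Hist1h1c has CCAAT and the H1 box.

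Genes that act on histone supply were read from a list. The list held 27 genes for transcription of histone genes (such as Npat), processing of their mRNA (such as Slbp) and chaperones or exchange complexes, all above 0.1 FPKM. With vehicle, 1 was higher and 1 lower in R6/1 mice, with a median log2 ratio of 0.15, where 5.87% of all genes were higher and 13.3% lower and their median was -0.02. Asf1b, the H3-H4 chaperone usually tied to dividing cells, had 0.644 FPKM in WT-vehicle, 1.49 in R6/1-vehicle, and with RGFP109, 0.653 in WT and 1.47 in R6/1 mice, so both R6/1 groups were higher. Chaf1b, a subunit of the replication-coupled assembly factor CAF-1, had 0.473 and 0.314 FPKM with vehicle and 0.336 and 0.383 with RGFP109. None of the 27 passed the fold after RGFP109 in either genotype.

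Npat, Slbp, Lsm10 and Lsm11 act directly on clustered histone genes or their mRNA, and their ratios did not share a direction. Npat, the cyclin E-dependent activator of histone transcription, had 4.54 FPKM in WT-vehicle, 6.21 in R6/1-vehicle, and with RGFP109, 4.40 in WT and 6.57 in R6/1 mice, and was past the fold with RGFP109 only (0.57). Slbp had 7.98, 9.85, 8.39 and 10.6 FPKM in these groups, within the fold in both pairs. Lsm11, a subunit of the U7 particle that cuts histone mRNA, had 2.96, 2.35, 3.08 and 2.63 FPKM, a log2 ratio of -0.32 with vehicle and -0.22 with RGFP109, and Lsm10, another subunit, had ratios of -0.18 and 0.02.

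Markers of cell types were read beside the histone genes. Of 12 genes of cycling cells, none was higher and Ccna2 was lower in R6/1-vehicle, the summed level was 18.3 FPKM in WT-vehicle, 17.5 in R6/1-vehicle, and with RGFP109, 15.6 in WT and 18.7 in R6/1 mice, and Mki67 had 0.660 and 0.622 FPKM with vehicle. With RGFP109, Top2a was higher in R6/1 mice. Of 8 genes of striatal projection neurons, 7 were lower in R6/1-vehicle, with sums of 3195, 1232, 3064 and 1104 FPKM in the 4 groups, and 4 of 6 oligodendrocyte genes, 6 of 8 neocortex genes, 3 of 7 ependyma and choroid plexus genes, 1 of 6 astrocyte genes and 1 of 6 endothelial genes were lower. Of all genes 13.3% were lower in this comparison. No gene of microglia or of oligodendrocyte precursors passed the fold, and no marker of any list was higher with vehicle. The ependyma and choroid plexus genes summed to 52.2 FPKM in WT-vehicle, 34.0 in R6/1-vehicle, and with RGFP109, 22.3 in WT and 19.6 in R6/1 mice, and all 7 were lower after RGFP109 in WT mice. The part of these shifts in cell markers in the histone values was not tested.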

How the data were processed

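RNA from the striatum of 24 mice was sequenced as single-end reads of 51 bases. The authors aligned reads with STAR 2.5.0b to RefSeq transcripts of mm10, estimated FPKM with Cufflinks 2.2.1 and compared groups in pairs with Cuffdiff, and the deposited tables give 1 FPKM value per group. Their columns of log2 fold changes, test statistics, p-values and q-values hold the authors' own comparisons and were not used. FPKM values below are means over the 3 tables that hold a group, put on 1 scale (table factors 0.9646 to 1.0337), and ratios come from the table of the pair. Depth per library is unknown, so no interval is given.

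Log2 ratios were taken after adding 0.05 FPKM to both values, and past the fold means over 0.5 in size. Described by name were the replacement genes of at least 0.1 FPKM, the clustered genes of at least 1 FPKM, and the clustered genes of at least 0.1 FPKM past the fold between the vehicle groups or between the R6/1 groups, 38 clustered and 11 replacement genes in all, with the genes of histone supply past the fold in these pairs. Npat, Slbp, Lsm10, Lsm11, Hist2h2ab and the markers named singly were chosen after their values were seen. Members and lists were chosen with earlier results of these data known. The lists covered histone supply and assembly, cycling cells, oligodendrocyte precursors, oligodendrocytes, astrocytes, microglia, endothelium, ependyma and choroid plexus, neocortex and striatal projection neurons.

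Transcripts came from GENCODE vM21 and promoters from RefSeq on GRCm38.p6. Each member was scored on the transcript with the most bases in its locus, and on the longer where these were equal. Windows of 51 bases were counted as shared when found at another genomic place in the transcripts. Table loci are on mm10 with 1 added to the start. The scripts were tested on simulated data and run with Python 3.11.15, numpy 2.4.6, pandas 2.3.3 and matplotlib 3.10.9. Alternatives covered the pseudocount, the minimum level, the fold, the scaling, overlapping loci, the authors' read minimum and shared sequence.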

Additional observations from a re-analysis of the deposited data

How the results depend on the processing

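No paired analysis was possible because the tables hold 1 value per group, and for the same reason no library could be left out. Counts of histone genes past the fold are given for R6/1 against WT with vehicle, the same with RGFP109, RGFP109 in R6/1 and RGFP109 in WT, which were 30, 26, 20 and 20 as reported. With 1 FPKM as pseudocount they were 6, 4, 2 and 1, since this shrinks the ratios of low genes. A minimum of 1 FPKM left 8, 5, 3 and 2 of 23 genes. A log2 ratio above 1 left 22, 11, 7 and 11. Restricting to genes with enough reads for the authors' test, an alternative chosen after seeing the data, left 8, 5, 4 and 2 of 23, 23, 25 and 21 genes. Leaving out the 23 genes with over 50% of windows shared with other places, also chosen later, left 13, 11, 7 and 8 of 32, of which 11, 10, 3 and 5 were higher; the 32 include Hist2h2aa2, which has no windows. The genotype counts under each of these kept more higher than lower genes. No minimum, no pseudocount, centring on all genes, common-scale values and leaving out overlapping loci kept each of these totals within 1.5 times, but not each direction. With no pseudocount, which leaves out genes listed at 0 and keeps 46, 45, 52 and 42 genes, higher genes with RGFP109 went from 22 to 14, higher genes after RGFP109 in R6/1 from 5 to 3 and lower genes after RGFP109 in WT from 10 to 6, and no minimum took higher genes after RGFP109 in R6/1 from 5 to 10. The median log2 ratio of clustered minus replacement genes with vehicle was 0.54, and went to 0.13 with 1 FPKM as pseudocount, 0.70 without overlapping loci and 0.66 with the authors' read minimum. With pooled values and unknown depth, the spread between mice is not measured.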
